A study of Arabidopsis thaliana with 12 samples.

Results

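The chloroplast genome of Arabidopsis thaliana encodes the core subunits of the photosynthetic complexes, and their transcripts were measured here in leaves of 3 starch mutants and wild type. The genes were chosen as probe sets paired with 1 chloroplast gene whose symbol begins with psa (photosystem I), psb (photosystem II), pet (cytochrome b6f complex), atp (ATP synthase), ndh (NADH dehydrogenase-like complex) or rbc (Rubisco). The rule found 43 genes with 1 probe set each, of 22810 probe sets on the Affymetrix ATH1 array, a short-oligonucleotide array with about 1 probe set per transcript. There were 5 psa, 15 psb, 6 pet, 6 atp and 10 ndh genes and 1 rbc gene. The remaining 26 of the 69 probe sets paired with 1 chloroplast gene stand for other chloroplast genes, mostly of ribosomal proteins, RNA polymerase and open reading frames. Of the 44 chloroplast genes with these prefixes in the RefSeq gene table (TAIR10.1), ndhB alone had no probe set of its own, because its probe set is shared by the copies of the gene.

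The series held 12 arrays, 3 for each genotype, all in the Columbia background. The mutant ptpkis2 carries the insertion Salk_053285 and affects PTPKIS2, a protein related to phosphoglucan phosphatases (the sample titles spell the mutant ptpks). The mutant sex4-3 carries the insertion Salk_102567 and lacks normal function of SEX4, a phosphatase that removes phosphate from starch, sex1-3 is an induced mutation affecting SEX1, the dikinase that adds that phosphate, and WT is Columbia (Col0). No probe set is named for SEX1, SEX4 or PTPKIS2 in the tables used here, so the mutated genes' own signals did not check the labels. Plants of all 4 genotypes grew with 12 h of light per day at 100 µmol m-2 s-1 and 20 °C. Leaves at growth stage 3.70, taken from 8 plants of each genotype, were collected at the end of the night, 0.5 h before the lights came on. Each mutant line is represented by 1 allele. Whether the arrays of 1 genotype hold RNA of different plants is not stated in the labels, so the p-values reflect variation among arrays that may be purely technical.

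Photosystem II takes electrons from water, the cytochrome b6f complex passes them on to photosystem I, and the proton gradient formed on the way drives the ATP synthase. The NADH dehydrogenase-like complex returns electrons from photosystem I to the plastoquinone pool in cyclic electron flow, and Rubisco fixes carbon dioxide. The chloroplast makes the core subunits itself, mostly from transcripts that cover several neighbouring genes, while the nucleus supplies the other subunits. Most chloroplast transcripts lack the long poly(A) tail on which the one-cycle labelling used here primes. In leaf RNA, fewer chloroplasts or chloroplast genomes and fewer transcripts in each cannot be told apart.

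WT replicate 2 stood apart from the other 11 arrays, and the chloroplast genes with it. The 43 genes held 6.11% of the signal of all probe sets on WT replicate 2, against 2.40 to 2.92% in ptpkis2, 2.08 to 2.50% in sex4-3, 1.92 to 2.17% in sex1-3, and 2.37 and 1.98% on WT replicates 1 and 3. On WT replicate 2, 30 of the 43 genes lay above all 11 other arrays and 5 lay below all of them (psaC, psbA, psbE, petB and atpB), with a median ratio of 3.38 to the median of the 11. Among all 22746 probe sets other than controls, 47.9% lay above and 22.2% below. The 3′ to 5′ signal ratio of the GAPDH control, a measure of RNA length, was 9.04 on WT replicate 2 and 1.32 to 2.59 on the others. The count of called genes in each comparison is therefore given with 12 arrays and with the 11 arrays that leave out WT replicate 2. With 11 arrays, comparisons of mutants with WT rest on 2 WT arrays. Some single genes are given with 11 arrays only. Of the calls between mutants, only 6 between ptpkis2 and sex1-3, named below, were also made with 12 arrays. The median signal of all probe sets was 29.3 to 29.7 in ptpkis2, 26.9 to 28.0 in sex4-3, 24.0 to 26.0 in sex1-3, and 27.8 to 27.9 on WT replicates 1 and 3. Of 10 leaf genes fixed as a check of the tissue, only the Rubisco activase RCA has a probe set named here, and its signal of 5870 to 10735 on the 11 arrays (median 9507) is near the top of the array; the other 9 are unnamed here.

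**Figure D1:**
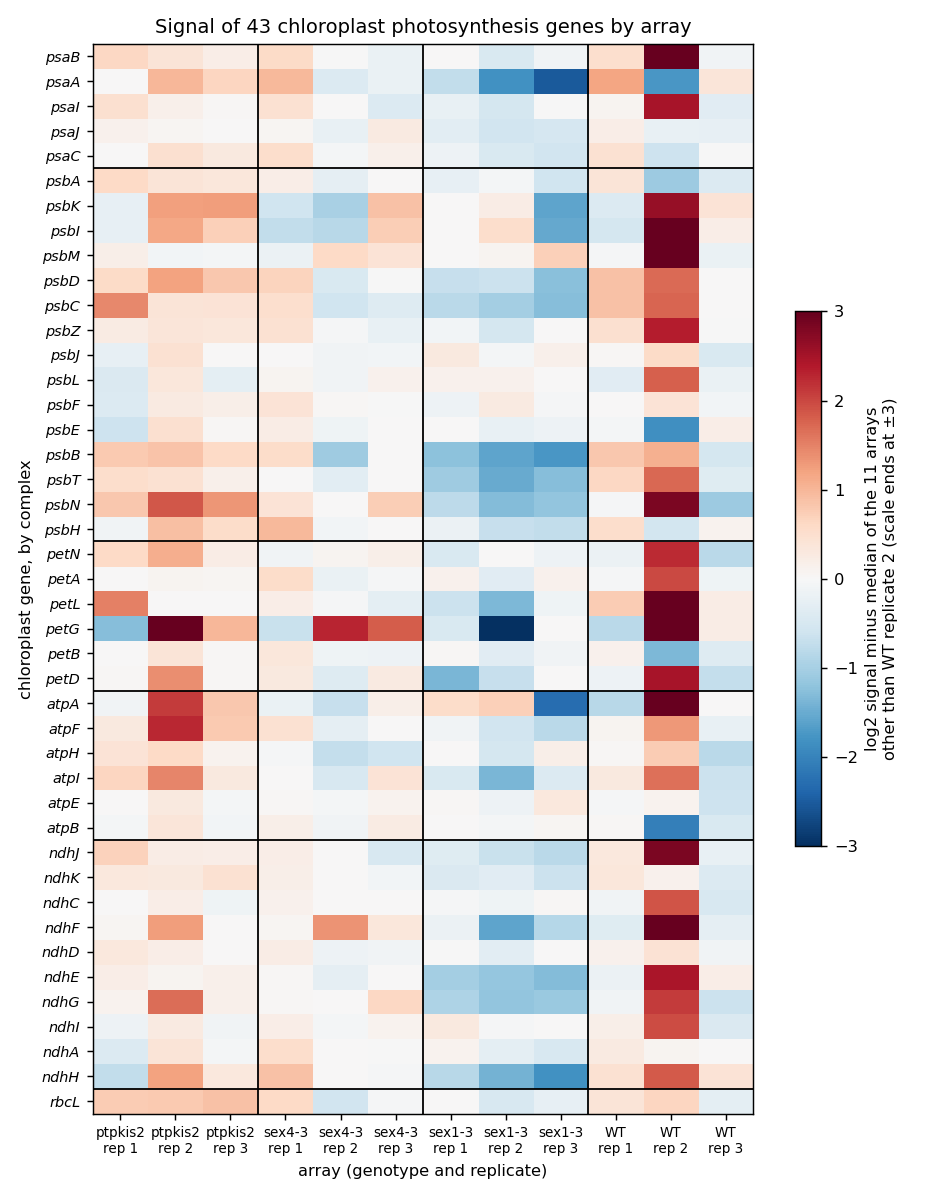
Log2 signal of the 43 chloroplast photosynthesis genes (rows, by complex) on the 12 arrays (columns, by genotype), as the difference from each gene's median over the 11 arrays other than WT replicate 2, with colours ending at 3 in either direction. Blue cells gather in the sex1-3 columns for psaA, psbD, psbC, psbB, psbT, ndhE, ndhG and ndhH. The column of WT replicate 2 is red to varying depth for most genes and blue for some, such as atpB and psbE.

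The main pattern was a lower level of a subset of these genes in sex1-3. A gene is called changed where the moderated test of limma, fitted to log2 signals of all 13647 probe sets tested, gave a Benjamini-Hochberg adjusted p below 0.05; all 43 genes were tested. Between sex1-3 and WT, 5 of the 43 genes fell (psbB, psbC, psbD, psbT and ndhH) and none rose with 12 arrays, when 2.95% of all probe sets were called and 1.87% were called lower. With 11 arrays 7 of 43 fell, the same 5 with psaA and ndhE, when 8.87% of all probe sets were called and 5.64% were called lower. The median log2 difference of the 43 genes was -0.88 with 12 arrays and -0.39 with 11 arrays, beside -0.02 and -0.06 over all probe sets tested. The 3 sex1-3 signals lay below all WT signals for 10 of 43 genes with 12 arrays, where 11.9% of all probe sets did so, and for 13 with 11 arrays, where 22.1% did. Each single array mattered: with 12 arrays the count of 5 was 0 without any 1 of the sex1-3 arrays (1.16 to 1.39% of all probe sets called). It was 1 without WT replicate 1 (2.36%) and 9 without WT replicate 3 (5.9%). Without WT replicate 1 none of the 5 kept its call (adjusted p = 0.055 to 0.085), and the 1 called was another gene. Arrays outside the comparison moved the count of 5 through the shared estimate of the spread. It was 3, 2 and 1 without ptpkis2 replicates 1, 2 and 3 and 2 and 1 without sex4-3 replicates 2 and 3 (1.73 to 2.1% of all probe sets called). With 11 arrays the count of 7 was 1, ndhE alone, without WT replicate 1, 3 without sex1-3 replicate 3 and 9 without WT replicate 3. The count of 5 was 0 with quantile normalization (1.51% of all probe sets called) and 0 with median centring of the arrays (0.63%). These settings moved the median of all probe sets to 0.15 and 0.52. With 11 arrays they gave 8 and 7 genes (8.18 and 10.2% of all probe sets).

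Between ptpkis2 and WT no gene was called with 12 arrays, when 0.264% of all probe sets were called, and 1 of 43 had an unadjusted p below 0.05, as 12.5% of all probe sets did. With 11 arrays 2 of 43 rose, psbN and petN, when 2.7% of all probe sets were called and 0.835% were called higher. Without WT replicate 3 as well this count was 0, without ptpkis2 replicate 1 or 2 it was 1, and without WT replicate 1 it was 3. The median difference was 0.01 with 12 arrays and 0.30 with 11 arrays, beside 0.05 and 0.03 over all probe sets. Between sex4-3 and WT no gene was called with either set of arrays, when 0.00733% of all probe sets were called, and 2 of 43 had an unadjusted p below 0.05 with 12 arrays and 3 with 11 (5.23 and 4.68% of all probe sets). The median difference between sex4-3 and WT was -0.39 with 12 arrays and turned to 0.06 with 11 arrays and to 0.02 with 12 arrays after median centring. The 3 comparisons with WT share the WT arrays, and those with sex1-3 share the sex1-3 arrays.

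The comparisons between mutants use no WT array for their differences, although WT arrays enter the estimate of the spread. Between ptpkis2 and sex1-3, 6 of 43 genes were higher in ptpkis2 with 12 arrays (psbB, psbC, psbD, psbT, ndhK and rbcL), when 9.46% of all probe sets were called and 5.28% were called higher. With 11 arrays 21 of 43 were higher in ptpkis2, those 6 among them, and none lower, when 29.1% of all probe sets were called and 16.8% were called higher. The median difference was 0.83 in both fits, beside 0.08 over all probe sets, and 38 of 43 differences were above 0. All ptpkis2 signals exceeded all sex1-3 signals for 26 of 43 genes, where 26.1% of all probe sets did so. Of the 21 genes, 14 were called again without each of the 11 arrays in turn, while of the 6 called with 12 arrays only psbB was. The 14 were psaA, psbB, psbC, psbD, psbN, psbT, atpF, atpI, ndhE, ndhG, ndhH, ndhJ, ndhK and rbcL. Thus psaC, psaJ, psbA, psbH, petD, petL and petN lost this call in at least 1 leave-out. With 12 arrays the count of 6 was 1 without ptpkis2 replicate 2, ptpkis2 replicate 3 or sex1-3 replicate 3. It was 2 without sex1-3 replicate 1 and 3 without sex1-3 replicate 2. In these fits 4.98 to 5.78% of all probe sets were called.

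Between sex4-3 and sex1-3 no gene was called with 12 arrays, when 2.43% of all probe sets were called and 9 of 43 genes had an unadjusted p below 0.05 (13.4% of all probe sets); without WT replicate 3 the count was 1. With 11 arrays 10 of 43 were higher in sex4-3 (psaA, psaC, psaJ, psbB, psbD, psbN, psbT, ndhE, ndhG and ndhH), when 14% of all probe sets were called and 8.39% were called higher. The median difference was 0.31. Of these 10 genes, psbN, psbT and ndhE were called again without each of the 11 arrays in turn, and the count was 3 without sex1-3 replicate 3, 5 without sex1-3 replicate 2 or sex4-3 replicate 1, and 6 without sex4-3 replicate 3. In the leave-outs with these lower counts, 8.96 to 14.1% of all probe sets were called. Between ptpkis2 and sex4-3 no gene was called with 12 arrays (0.0659% of all probe sets called) or with 11 arrays (1.66%). Here 2 and 11 of 43 genes had an unadjusted p below 0.05 (4.48 and 13.1% of all probe sets). Without sex4-3 replicate 1 as well the 11-array count was 1 (1.4% of all probe sets called). The median difference between ptpkis2 and sex4-3 was 0.24 in both fits.

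In photosystem II, the genes that fell in sex1-3 encode 3 of its large subunits and 1 small subunit. The gene psbB, which encodes the core antenna protein CP47, had signals of 794, 836 and 697 in ptpkis2, 675, 219 and 459.7 in sex4-3, 197, 153 and 138 in sex1-3, and 807, 955 and 319.7 in WT. All sex1-3 signals lay below those of the other genotypes. Its difference between sex1-3 and WT was -1.97 ± 0.43 (log2 ± SE, adjusted p = 0.035), a 3.91-fold lower level, and -1.66 ± 0.40 with 11 arrays (adjusted p = 0.019). Between ptpkis2 and sex1-3 it was 2.27 ± 0.43 (adjusted p = 0.0067), a 4.82-fold higher level, and between sex4-3 and sex1-3 1.35 ± 0.36 with 11 arrays (adjusted p = 0.022).

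The neighbouring gene psbT, for a small subunit at the photosystem II dimer interface, had signals of 327, 309.5 and 250.0 in ptpkis2, 226, 182 and 229 in sex4-3, 107, 78.8 and 93.1 in sex1-3, and 345, 741 and 174 in WT. The sex1-3 arrays were again lowest, with no overlap. The difference between sex1-3 and WT was -1.94 ± 0.40 (adjusted p = 0.025), or -1.41 ± 0.25 with 11 arrays (adjusted p = 0.0029). With 11 arrays psbT was 1.67 ± 0.22 higher in ptpkis2 than in sex1-3 (adjusted p = 7.4e-05) and 1.19 ± 0.22 higher in sex4-3 than in sex1-3 (adjusted p = 0.0027). Next to it, psbN, needed for assembly of photosystem II in tobacco and encoded on the opposite strand, had signals of 157, 324 and 222 in ptpkis2, 118, 89.0 and 147 in sex4-3, 52.0, 36.0 and 39.4 in sex1-3, and 86.6, 626 and 41.9 in WT. The ptpkis2 arrays were highest apart from WT replicate 2, and sex1-3 overlapped the low WT replicate 3. With 11 arrays psbN rose by 1.90 ± 0.33 in ptpkis2 against WT (adjusted p = 0.0075), where 12 arrays gave 0.77 ± 0.74 (adjusted p = 0.6), and it was 2.42 ± 0.30 higher in ptpkis2 than in sex1-3 (adjusted p = 4.2e-05). The call against WT was lost without WT replicate 3 (adjusted p = 0.11). The gene psbH, for a phosphorylated small subunit, had 1283, 2549 and 1998 in ptpkis2, 2680.1, 1295 and 1370.5 in sex4-3, 1211, 856 and 826 in sex1-3 and 1981, 940.0 and 1474 in WT. Its sex1-3 signals lay below the other genotypes except WT replicate 2, and ptpkis2 exceeded sex1-3 by 0.98 ± 0.28 with 11 arrays (adjusted p = 0.019).

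The reaction centre proteins D2 and D1 and the antenna protein CP43 are encoded by psbD, psbA and psbC. The signals of psbD were 332, 515 and 391 in ptpkis2, 352, 163 and 219 in sex4-3, 137, 143 and 92.4 in sex1-3, and 406, 723 and 222 in WT. Its sex1-3 arrays lay below all others, by -1.72 ± 0.40 against WT (adjusted p = 0.045) and -1.30 ± 0.32 with 11 arrays (adjusted p = 0.021). The overlapping gene psbC, transcribed with psbD, had 3153, 1511 and 1542 in ptpkis2, 1663, 775 and 896 in sex4-3, 663, 579 and 480.1 in sex1-3, and 2129.6, 3934 and 1165 in WT. No sex1-3 signal reached the lowest of the other genotypes, and the difference between sex1-3 and WT was -1.91 ± 0.44 (adjusted p = 0.043), or -1.47 ± 0.36 with 11 arrays (adjusted p = 0.02). Against sex1-3, ptpkis2 was higher by 1.74 ± 0.40 for psbD and 1.77 ± 0.44 for psbC with 12 arrays (adjusted p = 0.019 and 0.026). The signals of psbA, by contrast, were 3996, 3456 and 3349 in ptpkis2, 3058, 2211 and 2649.8 in sex4-3, 2246, 2549 and 1743 in sex1-3, and 3488, 1245 and 1991 in WT. The ptpkis2 arrays lay above sex1-3 and sex4-3, and WT replicate 2 was the lowest of all. No comparison of psbA with WT was called, with -0.29 ± 0.23 for sex1-3 and 11 arrays (adjusted p = 0.48). With 11 arrays ptpkis2 exceeded sex1-3 by 0.74 ± 0.20 (adjusted p = 0.014).

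**Figure D2:**
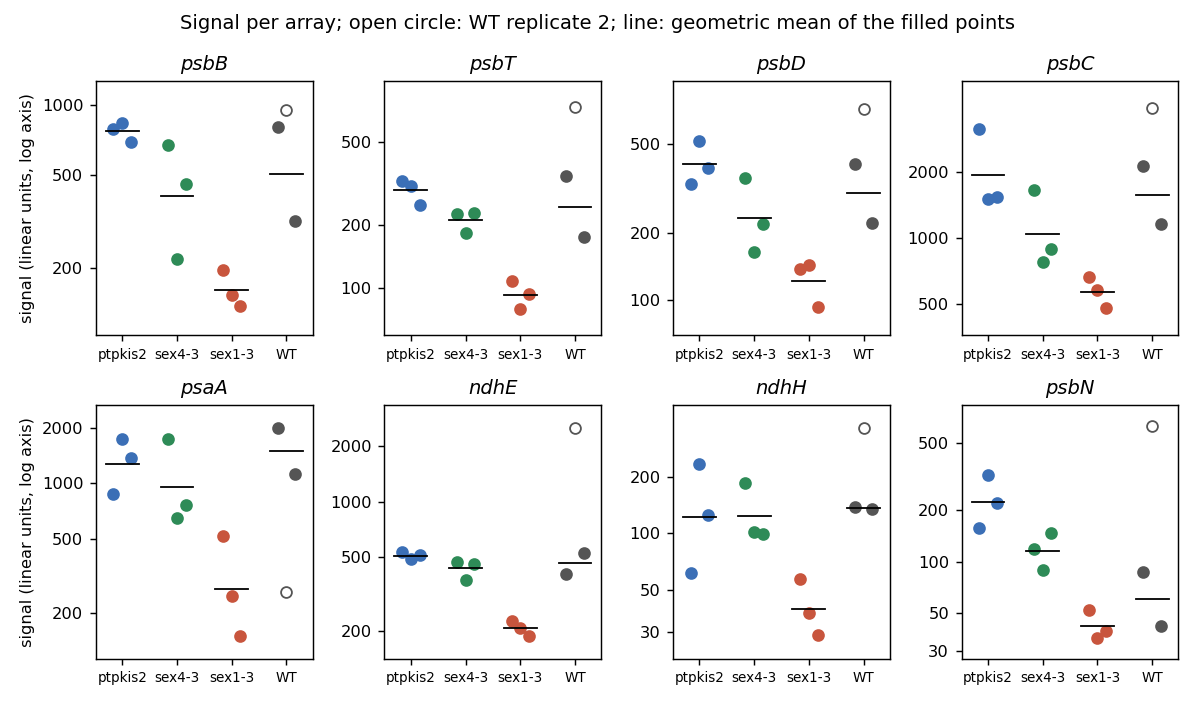
Signal (linear units, log axis) of 8 genes on each array, by genotype, with WT replicate 2 as an open circle and the line at the geometric mean of the filled points. In all 8 panels the sex1-3 points have the lowest mean, and for psbN the lowest filled WT point lies among them.

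With 11 arrays the falls of psbB, psbC and psbD in sex1-3 against WT were lost without WT replicate 1 (adjusted p = 0.27, 0.24 and 0.26) and without sex1-3 replicate 3 (adjusted p = 0.062, 0.068 and 0.078). The fall of psbT was lost without WT replicate 1 (adjusted p = 0.052).

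Apart from psbK and psbI, described below, the other photosystem II genes lay at similar signals in all genotypes outside WT replicate 2. The brightest of them, psbM, for a small subunit at the dimer interface, had 6549, 5439 and 5561 in ptpkis2, 5124, 8731 and 7653 in sex4-3, 5778, 6089 and 9499.9 in sex1-3, and 5649.6, 52543 and 5009 in WT. Apart from WT replicate 2, where it was the brightest of the 43 genes, the genotypes lay close together, with WT replicates 1 and 3 just below sex1-3, and the 11-array difference between sex1-3 and WT was 0.38 ± 0.24 (adjusted p = 0.36). The gene psbF, for the β subunit of cytochrome b559, had 2290.2, 3646 and 3448 in ptpkis2, 4018, 3105 and 3002 in sex4-3, 2730.4, 3654 and 2975 in sex1-3, and 3039, 4021 and 2872 in WT. The 4 genotypes overlapped fully, and its largest difference with 12 arrays was -0.13 ± 0.24, between ptpkis2 and sex4-3 (adjusted p = 1). The 3 genes beside it, psbE for the α subunit and psbJ and psbL for small subunits, had 11-array differences between sex1-3 and WT of -0.20, 0.33 and 0.36, and none was called in any comparison. The same held for psbZ, for a subunit that binds the antenna, which was at -0.43 ± 0.22 in that comparison.

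Photosystem I showed its change in psaA, which encodes one of the paired reaction centre proteins. Signals of psaA were 874, 1730.4 and 1370.0 in ptpkis2, 1728, 654 and 766 in sex4-3, 524, 249 and 152 in sex1-3, and 1997, 259.8 and 1129 in WT. The sex1-3 arrays lay below all others except WT replicate 2, which fell among them. With 11 arrays psaA was 5.55-fold lower in sex1-3 than in WT (-2.47 ± 0.48, adjusted p = 0.0052), and with 12 arrays the difference was -1.63 ± 0.68 (adjusted p = 0.22). The call rested on WT replicate 1: without it, 11 arrays gave an adjusted p of 0.082. Between ptpkis2 and sex1-3 the difference was 2.24 ± 0.43 (adjusted p = 0.0013) with 11 arrays, and between sex4-3 and sex1-3 1.82 ± 0.43 (adjusted p = 0.012).

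Its partner psaB lies next to psaA and is transcribed with it, and had signals of 6392, 5463 and 4827 in ptpkis2, 6256, 4159.7 and 3673 in sex4-3, 4186, 3052 and 3889 in sex1-3, and 5905, 34023 and 3915 in WT. Here the lowest WT array, replicate 3, overlapped the sex1-3 arrays, and the 11-array difference between sex1-3 and WT was -0.39 ± 0.24 (adjusted p = 0.35). The iron-sulfur subunit gene psaC had 633, 881 and 781 in ptpkis2, 911, 611 and 698 in sex4-3, 566, 459 and 422 in sex1-3, and 869.6, 409.9 and 625 in WT. Its sex1-3 signals lay below ptpkis2 and sex4-3, which exceeded sex1-3 by 0.66 ± 0.19 and 0.61 ± 0.19 with 11 arrays (adjusted p = 0.016 and 0.044). The ptpkis2 call was lost without ptpkis2 replicate 2 or 3 or sex1-3 replicate 3 (adjusted p = 0.054 to 0.077). That of sex4-3 was lost without any 1 of these arrays, sex1-3 replicate 2 or sex4-3 replicate 1 or 3 (adjusted p = 0.052 to 0.16). For psaJ, a small subunit, the signals were 3025, 2923 and 2788 in ptpkis2, 2918, 2399 and 3352 in sex4-3, 2237, 1879.6 and 1973 in sex1-3, and 3220.1, 2375 and 2333 in WT. All of sex1-3 lay below all of the rest, yet the 11-array differences were small. Against sex1-3 they were 0.52 ± 0.15 for ptpkis2 and 0.50 ± 0.15 for sex4-3 (adjusted p = 0.02 and 0.045). The sex4-3 call was lost without any 1 of the sex1-3 arrays (adjusted p = 0.056 to 0.12). Between sex1-3 and WT the psaJ difference was -0.44 ± 0.17, which was not called (adjusted p = 0.14). The small subunit gene psaI had 3101, 2442 and 2270.2 in ptpkis2, 3051, 2212 and 1659.8 in sex4-3, 1899, 1538 and 2195 in sex1-3, and 2322, 12372 and 1739 in WT. Its genotypes overlapped, except that all ptpkis2 arrays exceeded sex1-3, and it was not called in any comparison.

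The cytochrome b6f genes had no call between sex1-3 and WT, although the 11-array differences of petL and petG were -1.20 and -1.01. The large subunit genes petA and petB were not called in any comparison. The gene petA, for cytochrome f, had 2652, 2822 and 2782 in ptpkis2, 3897, 2306 and 2589 in sex4-3, 2913, 2091 and 2921 in sex1-3, and 2572, 10442 and 2435 in WT. Only WT replicate 2 stood out. The cytochrome b6 gene petB had 5458, 7092 and 5612 in ptpkis2, 6859, 5022 and 4888 in sex4-3, 5606, 4285 and 5092 in sex1-3, and 5936, 2144 and 4162 in WT. WT replicate 2 was lowest for petB and the genotypes overlapped, with a difference between sex1-3 and WT of -0.0020 ± 0.20 with 11 arrays and 0.40 ± 0.33 with 12 arrays (adjusted p = 0.47).

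The small subunit gene petN was among the 2 that rose in ptpkis2 against WT. Its signals were 199, 280.2 and 154 in ptpkis2, 122, 139.8 and 151 in sex4-3, 96.7, 133 and 118 in sex1-3, and 117, 624 and 76.0 in WT. All ptpkis2 signals exceeded those of the other genotypes except WT replicate 2, with a difference of 1.12 ± 0.25 from WT with 11 arrays (adjusted p = 0.028) and 0.21 ± 0.59 with 12 arrays (adjusted p = 0.86). The call was lost without ptpkis2 replicate 1, ptpkis2 replicate 2 or WT replicate 3 (adjusted p = 0.078, 0.1 and 0.27). For petL, a small subunit, the signals were 1076, 377 and 379.9 in ptpkis2, 434, 368 and 307 in sex4-3, 242, 147 and 342 in sex1-3, and 637, 12743 and 437 in WT. Its WT replicate 2 value was 33.8 times the median of the other 11 arrays, and ptpkis2 exceeded sex1-3 by 1.22 ± 0.36 with 11 arrays (adjusted p = 0.021). The subunit IV gene petD had 53.5, 138 and 53.9 in ptpkis2, 64.3, 40.0 and 62.9 in sex4-3, 20.3, 32.4 and 52.6 in sex1-3, and 47.5, 291 and 31.9 in WT. The highest sex1-3 signal lay just under the lowest ptpkis2 signal, and the difference between these genotypes was 1.18 ± 0.39 with 11 arrays (adjusted p = 0.036). The dimmest gene of the complex, petG, had 7.79, 193 and 37.4 in ptpkis2, 11.9, 91.3 and 65.8 in sex4-3, 13.8, 1.73 and 18.8 in sex1-3, and 10.8, 735 and 22.0 in WT. Its WT replicate 2 value had the highest such ratio among the 43 genes, 39.1. The petG signals ran over a wide range within each mutant, and within WT through WT replicate 2, and no comparison was called.

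The ATP synthase genes had no call against WT. The catalytic β subunit gene atpB had 8732, 11614 and 8561 in ptpkis2, 10198, 8461 and 10795 in sex4-3, 9092, 8789 and 9489.6 in sex1-3, and 9252, 2182 and 6648 in WT, and the ε subunit gene atpE, which overlaps it, had 8419.6, 10352 and 8066 in ptpkis2, 8594, 8043 and 9097 in sex4-3, 8576, 7589 and 10474 in sex1-3, and 8206, 8995 and 5501 in WT. Both were bright and level on the 11 arrays, with 11-array differences between sex1-3 and WT of 0.22 ± 0.18 and 0.39 ± 0.19. The α subunit gene atpA lies elsewhere in the genome and had 1166, 5290.1 and 2189 in ptpkis2, 1085, 766 and 1397 in sex4-3, 1819, 2052 and 255 in sex1-3, and 697, 12840.0 and 1245 in WT. Its signals spread widely within genotypes, and the 11-array difference between ptpkis2 and WT of 1.35 ± 0.73 was not called (adjusted p = 0.4). Its neighbour atpF, for a subunit of the stalk that anchors the complex, had 515, 2017 and 721 in ptpkis2, 578, 347 and 419.7 in sex4-3, 389, 279.7 and 239.8 in sex1-3, and 444, 1035 and 357 in WT. All ptpkis2 signals exceeded all sex1-3 signals, by 1.61 ± 0.37 with 11 arrays (adjusted p = 0.005). The membrane subunit gene atpI had 139, 244 and 108 in ptpkis2, 88.5, 63.4 and 118 in sex4-3, 65.0, 34.1 and 66.6 in sex1-3, and 108, 276 and 56.4 in WT. Here too ptpkis2 lay above sex1-3 with 11 arrays, by 1.55 ± 0.35 (adjusted p = 0.0041), while atpH, for the ring subunit, was at 0.48 ± 0.24 (adjusted p = 0.16).

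In the NADH dehydrogenase-like complex, ndhE and ndhH fell in sex1-3. The membrane subunit gene ndhE had 531, 489 and 512 in ptpkis2, 472, 378 and 459 in sex4-3, 226, 206 and 188 in sex1-3, and 405, 2519 and 529 in WT. The 3 sex1-3 signals lay well below all others, and apart from WT replicate 2 the replicates of a genotype were close together. Between sex1-3 and WT the difference was -1.17 ± 0.16 with 11 arrays (adjusted p = 5e-04), a 2.24-fold lower level, and -1.98 ± 0.50 with 12 arrays (adjusted p = 0.062). It was the only one of the 7 genes whose 11-array fall was called without each of the 11 arrays in turn. Both other mutants exceeded sex1-3, ptpkis2 by 1.31 ± 0.14 and sex4-3 by 1.08 ± 0.14 with 11 arrays (adjusted p = 1.5e-05 and 0.00025).

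For ndhH, a subunit of the arm that projects into the stroma, the signals were 61.2, 234 and 126 in ptpkis2, 186, 102 and 98.9 in sex4-3, 57.3, 37.8 and 28.7 in sex1-3, and 138, 363 and 134 in WT. All sex1-3 signals lay below all others, although the ptpkis2 arrays ranged from just above sex1-3 to the highest outside WT. The difference between sex1-3 and WT was -2.26 ± 0.52 (adjusted p = 0.042), and -1.78 ± 0.44 with 11 arrays (adjusted p = 0.022); the 11-array call was lost without WT replicate 1 or 3 or sex1-3 replicate 2 or 3 (adjusted p = 0.13, 0.078, 0.054 and 0.078). The membrane subunit gene ndhG had 205, 616 and 214 in ptpkis2, 197, 192 and 293 in sex4-3, 101, 83.9 and 88.0 in sex1-3, and 178, 825 and 123 in WT. Its sex1-3 signals were also the lowest, but the difference from WT was not called (-0.71 ± 0.37 with 11 arrays, adjusted p = 0.27). With 11 arrays those of ptpkis2 and sex4-3 from sex1-3 were called (1.73 ± 0.33 and 1.30 ± 0.33, adjusted p = 0.0014 and 0.019).

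The stromal arm genes ndhK and ndhJ were called between ptpkis2 and sex1-3. Signals of ndhK were 719, 698 and 793 in ptpkis2, 651, 573 and 544 in sex4-3, 427, 454 and 365 in sex1-3, and 728, 625 and 430.2 in WT. The ptpkis2 arrays exceeded the sex1-3 arrays by 0.83 ± 0.20 with 12 arrays (adjusted p = 0.022), and sex4-3 lay between them. Signals of ndhJ were 1441, 1046 and 1033 in ptpkis2, 1024, 899 and 641 in sex4-3, 694, 561 and 512 in sex1-3, and 1118, 6314 and 767 in WT. The ptpkis2 arrays were again above the sex1-3 arrays, while sex4-3 overlapped sex1-3, with a difference between ptpkis2 and sex1-3 of 0.99 ± 0.20 with 11 arrays (adjusted p = 0.0023). The third gene of that cluster, ndhC, a membrane subunit, had 2127, 2427 and 1918 in ptpkis2, 2305, 2113 and 2121 in sex4-3, 2068, 1929 and 2173 in sex1-3, and 1957, 7764 and 1521 in WT. Only WT replicate 2 stood apart, and its 11-array difference between ptpkis2 and sex1-3 was 0.06 ± 0.13 (adjusted p = 0.76).

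The other ndh genes were not called in any comparison. The bright stromal arm gene ndhI had 4966, 6739 and 5132 in ptpkis2, 6345, 5314 and 5997 in sex4-3, 6839, 5411 and 5556 in sex1-3, and 6253, 21535 and 4138 in WT. No genotype stood apart. The membrane subunit gene ndhD had 3427, 3165 and 2812 in ptpkis2, 3235, 2493 and 2578 in sex4-3, 2757, 2240 and 2772 in sex1-3, and 3029, 3714 and 2576 in WT. For ndhA, also a membrane subunit, the 11 arrays ran from 1199 in sex1-3 to 2425 in sex4-3. The dimmest gene of the complex, ndhF, had 19.7, 45.1 and 18.8 in ptpkis2, 19.6, 48.1 and 23.8 in sex4-3, 16.7, 6.33 and 10.5 in sex1-3, and 14.6, 153 and 15.6 in WT. Its sex1-3 signals lay below those of ptpkis2 and sex4-3 but overlapped WT, and the difference between ptpkis2 and sex1-3 was 1.31 ± 0.47 with 11 arrays (adjusted p = 0.052).

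The Rubisco large subunit gene rbcL had 1039, 1071 and 1137 in ptpkis2, 935, 416 and 600.2 in sex4-3, 617, 442 and 522 in sex1-3, and 806, 962 and 500.3 in WT. The ptpkis2 arrays were the highest and the closest together, and the other genotypes overlapped. The difference between ptpkis2 and sex1-3 was 1.05 ± 0.30 (adjusted p = 0.049) and 1.05 ± 0.25 with 11 arrays (adjusted p = 0.0055). That between ptpkis2 and WT was 0.77 ± 0.28 with 11 arrays (adjusted p = 0.17), and that between sex1-3 and WT -0.28 ± 0.28 (adjusted p = 0.59).

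Set side by side with 11 arrays, the median difference between sex1-3 and WT was -0.44 for the 5 psa genes, -0.43 for the 15 psb genes, -0.13 for the 6 pet genes, 0.15 for the 6 atp genes and -0.49 for the 10 ndh genes. Calls lower in sex1-3 numbered 1 of 5 psa, 4 of 15 psb, 0 of 6 pet, 0 of 6 atp and 2 of 10 ndh genes. With 12 arrays the medians were -0.99, -1.14, -0.93, -0.50 and -1.01 in that order. Between ptpkis2 and WT the 11-array medians were 0.09 for psa, 0.27 for psb, 0.60 for pet, 0.87 for atp and 0.24 for ndh genes, and between sex4-3 and WT they were -0.01, -0.04, 0.34, 0.17 and 0.05. Genes higher in ptpkis2 than in sex1-3 with 11 arrays numbered 3 of 5 psa, 7 of 15 psb, 3 of 6 pet, 2 of 6 atp and 5 of 10 ndh genes. No difference between the subgroups was tested, and between sex1-3 and WT the genes of each subgroup ranged more widely than the subgroups' medians.

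**Figure D3:**
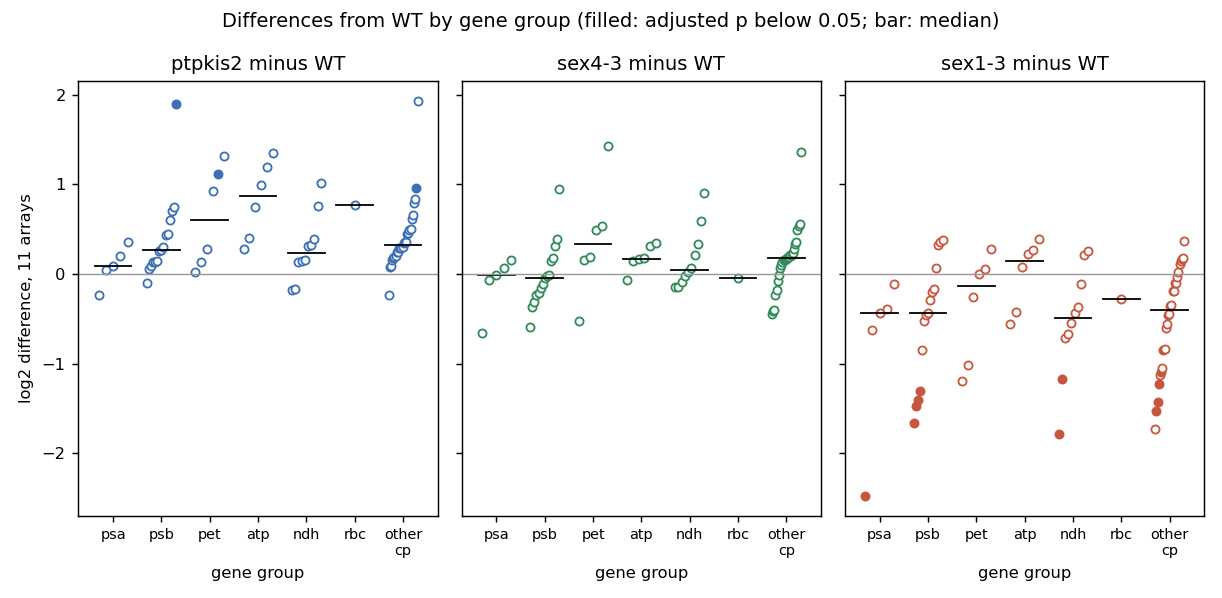
Log2 difference from WT of each gene with 11 arrays, by gene group and mutant, with called genes filled and a bar at the median; "other cp" is the 26 other chloroplast genes. Filled points lie below 0 for sex1-3 in the psa, psb, ndh and other groups and above 0 for ptpkis2 in psb, pet and other.

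The 26 other chloroplast genes had a similar position. Their median between sex1-3 and WT was -0.40 with 11 arrays, with 5 of 26 called lower (5.64% of all probe sets). With 12 arrays it was -1.04, with 0 of 26 called (2.95% of all probe sets). For 13 of 26 the sex1-3 signals then lay below all WT signals, as for 11.9% of all probe sets. Between ptpkis2 and sex1-3 they had a median of 0.82, with 14 of 26 higher in ptpkis2 with 11 arrays and 2 with 12 (16.8 and 5.28% of all probe sets). A second scale was log2 signal relative to the mean of these 26 genes on the same array. With 12 arrays the median of the 43 genes on it was 0.28 between sex1-3 and WT. It was -0.10 between ptpkis2 and sex1-3 and -0.36 between sex4-3 and sex1-3, so the signs turned on that scale. On that scale 5 of the 21 genes called higher in ptpkis2 than in sex1-3 with 11 arrays (psaC, psaJ, psbA, petN and ndhK) and 2 of the 10 called higher in sex4-3 than in sex1-3 (psaC and psaJ) were lower, while all 7 genes called lower in sex1-3 than in WT stayed lower. That scale sets a median of the 43 genes against a mean of the 26. The medians of the 43 and the 26 genes were 0.83 and 0.82 between ptpkis2 and sex1-3, so that sign turn depended on the summary used. They were -0.39 and -0.40 between sex1-3 and WT with 11 arrays, and 0.31 and 0.67 between sex4-3 and sex1-3. In comparisons with sex1-3 the median differences of the 43 genes thus held relative to the whole array. The other chloroplast genes moved in the same direction. The 7 falls in sex1-3 against WT kept their direction on both scales, without a test on the second.

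The nuclear genes of the same complexes could be followed only in part, since 13 of the 75 genes in 8 lists have a probe set named here and 12 were tested. These were LHCB4.1, LHCB4.2 and LHCB4.3 of 21 light harvesting genes, PSAN and PSAE-1 of 12 photosystem I genes, PSBY and PSBW of 11 photosystem II genes, AT2G26500 of 7 electron transport genes, ATPC1 of 3 ATP synthase genes, NdhN and NdhL of 8 genes of the NADH dehydrogenase-like complex, and RCA of 5 Rubisco genes. Of 8 plastid transcription genes AT5G15700 had a probe set, which was too dim to be tested. None of the 12 was called in any of the 6 comparisons with 12 or 11 arrays. The 11-array list medians between sex1-3 and WT were -0.01 for light harvesting, 0.13 for photosystem I, 0.15 for photosystem II, 0.40 for electron transport, -0.09 for ATP synthase, 0.27 for the NADH dehydrogenase-like complex and 0.46 for Rubisco.

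In the order of the chloroplast genome, called and uncalled genes lay side by side. In the series psbB, psbT, psbN, psbH, petB and petD, whose members other than psbN are transcribed together, the 11-array differences between sex1-3 and WT were -1.66, -1.41, -0.52, -0.85, -0.0020 and -0.26. Among psbD, psbC and psbZ they were -1.30, -1.47 and -0.43. The long series ndhD, psaC, ndhE, ndhG, ndhI, ndhA and ndhH, also transcribed together, had -0.12, -0.62, -1.17, -0.71, 0.21, -0.37 and -1.78. Genes that share a transcript are not independent measurements, yet their probe sets gave unequal differences.

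**Figure D4:**
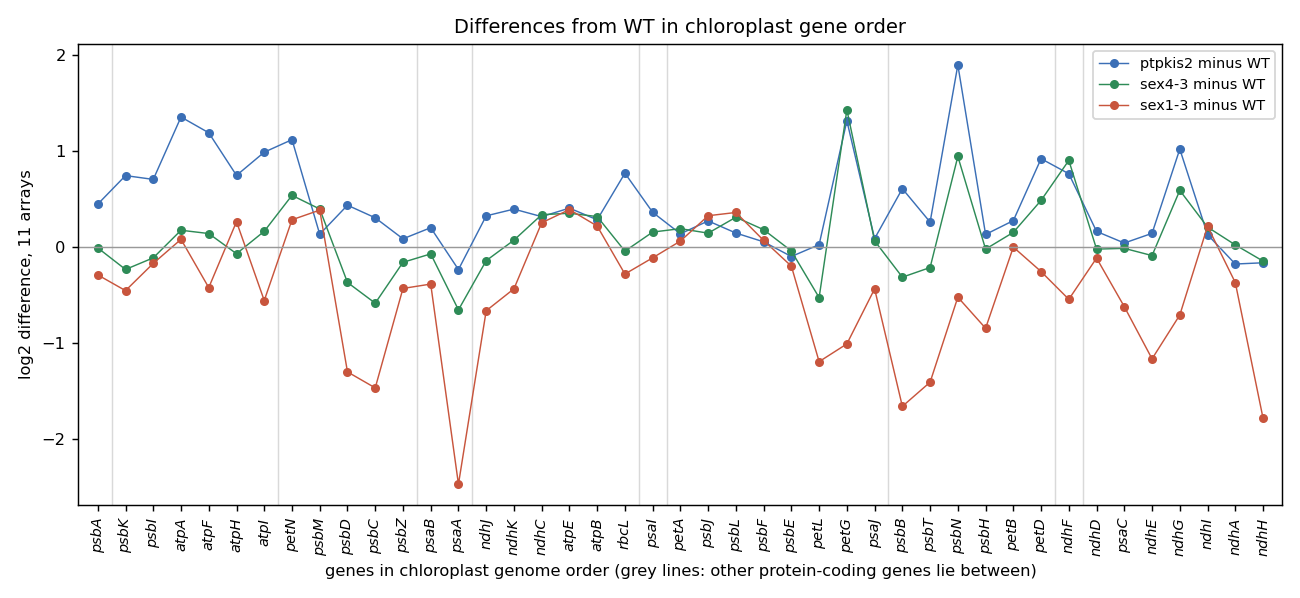
Log2 difference from WT with 11 arrays for the 43 genes in chloroplast genome order, by mutant, with grey lines where other protein-coding genes lie between. The sex1-3 line dips at psbD and psbC, at psaA, at petL and petG, at psbB and psbT, and at ndhE and ndhH. In sex1-3, psbM, atpE, atpB, psbJ and psbL lie above 0.

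Replicates of a genotype differed more in some genes than others. The median SD of log2 signal within genotypes on the 11 arrays was 0.32 for the 43 genes (0.15 to 1.82), 0.38 for the 26 other chloroplast genes and 0.26 for all probe sets tested. The neighbours psbK and psbI encode small photosystem II subunits. Signals of psbK were 868, 2444 and 2471 in ptpkis2, 681, 527 and 1913 in sex4-3, 1037, 1214 and 345 in sex1-3, and 781, 6324 and 1380.1 in WT, and those of psbI were 845, 2251 and 1657 in ptpkis2, 604, 563 and 1694 in sex4-3, 1009.7, 1464 and 346 in sex1-3, and 705, 10720.2 and 1150.4 in WT. In both, sex1-3 replicate 3 was the lowest array and WT replicate 2 the highest, as for atpA, and ptpkis2 replicate 1 was the lowest of its genotype. Neither psbK nor psbI was called in any comparison, with 11-array differences between ptpkis2 and sex1-3 of 1.20 ± 0.53 and 0.87 ± 0.51. Whether this spread comes from the plants or the arrays was not tested.

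**Figure D5:**
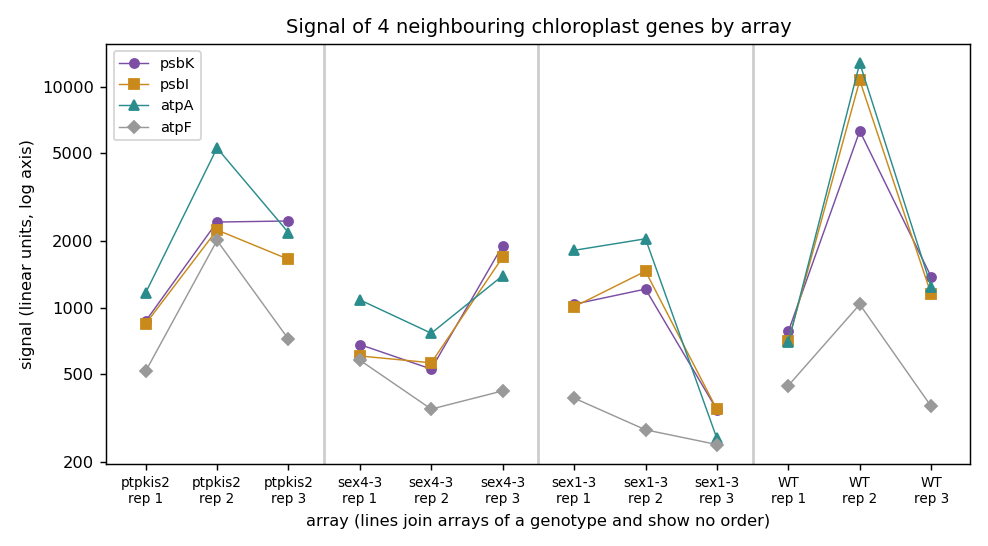
Signal (linear units, log axis) of psbK, psbI, atpA and atpF, which lie in this order in the chloroplast genome, on each array by genotype. For psbK, psbI and atpA the arrays of a genotype differ by more than the genotypes do, with WT replicate 2 highest and sex1-3 replicate 3 lowest.

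The size of the difference moved with brightness. Across the 43 genes, which are not independent, the mean log2 signal and the 11-array difference had a Spearman correlation of 0.59 between sex1-3 and WT and -0.77 between ptpkis2 and sex1-3, so dimmer probe sets were further below in sex1-3. Of the 22 dimmer genes, 6 were called lower in sex1-3 than in WT and 17 higher in ptpkis2 than in sex1-3, against 1 and 4 of the 21 brighter ones. The sex1-3 arrays also had the lowest median signal over all probe sets, and the part of that offset, or of brightness, in these results was not tested. Brightness does not order the genes by transcript amount, since each probe set binds with its own strength.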

How the data were processed

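RNA from leaves was labelled by the one-cycle protocol and hybridised to 12 Affymetrix ATH1 arrays, per the labels' protocols. The authors deposited 1 signal intensity per probe set and array, made with MAS5 and GCOS, without a version, per the submitters' processing notes. The 2% trimmed mean of the intensities was 100.01 on all 12 arrays, as after scaling to a common level. Every column was matched to a sample, so 0 columns were left out.

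Gene names came from GEO's platform annotation and RefSeq (TAIR10.1). After control probe sets and the dimmest 40% of the rest by mean log2 were set aside, limma 3.58.1 (R 4.3.3; linear model over 4 genotypes, eBayes with trend, two-sided) was applied to log2 intensities with no pseudocount. The fit covered 13647 probe sets, with p-values adjusted by the Benjamini-Hochberg method over all of them. All 43 genes passed that filter, which used the mean over all arrays, with 12 and with 11 arrays. Arrays give no read depth, and their number limits the precision. The code was tested on simulated data with equal noise on every array, set from the spread of the 11 arrays. That simulation held no outlying array such as WT replicate 2.

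Every member is accounted for, and values on each array are given for the 3 brightest and the dimmest gene of each subgroup, rbcL, and every called gene, up to 5 per subgroup and comparison, with a few others. The members, lists and rules were chosen with earlier results of these data known. Same-numbered arrays of different genotypes deviated from their group means with correlations of -0.07 to 0.11 (18 pairs, 2 of them over 0.1). Arrays with different numbers gave -0.14 to 0.13. No pairing by replicate number was visible in these values, which cannot show how the arrays were processed. Alternatives were other filters, normalizations, eBayes settings, array weights, a raised floor for low signals, fits of only the genotypes compared, the replicate number as a block, the scale relative to other chloroplast genes, and leaving out each array. No sequence was printed, since no sequence table was given.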

Additional observations from a re-analysis of the deposited data

How the results depend on the processing

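No direction of a called difference turned under any alternative tried except the scale relative to the other chloroplast genes, added for single genes after seeing the data and given without a test. There the difference between ptpkis2 and sex1-3 turned for ndhK with 12 arrays (-0.10) and, without WT replicate 2, for psaC (-0.27), psaJ (-0.41), psbA (-0.20), petN (-0.10) and ndhK (-0.10), and that between sex4-3 and sex1-3 turned for psaC (-0.062) and psaJ (-0.17). Limits lie in 3 arrays per genotype, in WT replicate 2 and in dim signals, for which the array's background is not given here. For sex1-3 against WT, 2.95% of all probe sets were called in the main fit. The 5 genes called became 0 with quantile normalization (1.51% of all probe sets called), 0 with median centring (0.63%) and 1 with eBayes without trend (2.19%). They became 0 with only the 2 genotypes compared (0%) and 13 with array weights (14.8%). Without WT replicate 2 (8.87%) the 7 became 8 with quantile normalization (8.18%). Leaving out arrays gave 0 to 9. For ptpkis2 against WT, 0 became 2 with array weights, and 2 without WT replicate 2 alone, with median centring or with quantile normalization (0 to 3 leaving out arrays). For sex4-3 against sex1-3, 0 became 9 with only the 2 genotypes compared, 9 with array weights, 10 without WT replicate 2, and there 7 with median centring and 10 with quantile normalization (0 to 11 leaving out arrays). For ptpkis2 against sex1-3, 6 became 2 with quantile normalization, 3 with median centring, 24 with only the 2 genotypes compared and 25 with array weights, and without WT replicate 2 it was 21, 15 with median centring and 22 with quantile normalization (1 to 24 leaving out arrays). For ptpkis2 against sex4-3, 0 became 10 with array weights, which gave WT replicate 2 a weight of 0.0384 (0 to 1 leaving out arrays). For sex4-3 against WT all alternatives gave 0. The share of all probe sets called moved under these settings too. For ptpkis2 against WT it was 5.85% with array weights. For sex4-3 against sex1-3 it was 10.6% with only the 2 genotypes compared and 20.7% with array weights. For ptpkis2 against sex1-3 it was 6.59% with quantile normalization and 3.44% with median centring. It was 30.9% there with only the 2 genotypes compared and 33.9% with array weights. For ptpkis2 against sex4-3 it was 7.28% with array weights. The causes of these changes were not tested.

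The median difference between sex1-3 and WT was -0.88, with -0.34 under median centring, -0.39 without WT replicate 2, -0.23 without it and with median centring, 0.28 relative to the other chloroplast genes, and -1.31 to -0.18 leaving out arrays. That between sex4-3 and WT was -0.39, with 0.016 under median centring, 0.06 without WT replicate 2, 0.079 without it and with median centring, 0.10 relative to the other chloroplast genes, and -0.86 to 0.30 leaving out arrays. That between ptpkis2 and WT was 0.01, and -0.35 to 0.52 leaving out arrays. Relative to the other chloroplast genes, sex4-3 minus sex1-3 was -0.36 and ptpkis2 minus sex1-3 was -0.10. Each value relative to the other chloroplast genes sets a median against their mean. Leaving out arrays, the medians were 0.31 to 0.48 for sex4-3 minus sex1-3, 0.63 to 0.90 for ptpkis2 minus sex1-3 and 0.20 to 0.43 for ptpkis2 minus sex4-3.

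With the replicate number as a block, which the correlations above do not bear out as a pairing, the count for sex1-3 against WT was 3 (2.23% of all probe sets called). Without WT replicate 2 the block gave 8 for sex1-3 against WT, 2 for ptpkis2 against WT and 12 for sex4-3 against sex1-3. It gave 23 for ptpkis2 against sex1-3 and 1 for ptpkis2 against sex4-3. The shares of all probe sets called were 8.94, 2.51, 15.2, 29.8 and 1.72% in that order. The medians with this block were -0.37 for sex1-3 and 0.031 for sex4-3 against WT. Array weights, fits without WT replicate 2 combined with another setting, and second leave-outs without WT replicate 2 include settings chosen after seeing the data.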
